A study of Mus musculus with 9 samples.

Results

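9 genes of the pre-B cell receptor and of B cell identity were followed across leukemic marrow of ERG transgenic mice and 2 kinds of wild type marrow. The genes were Ebf1, Pax5, Igll1, Vpreb3, Cd79a, Cd79b, Blnk, Ms4a1 and Rag1, chosen by symbol in the array's annotation, and they are 9 of 19938 genes tested. Each was read by 1 probe set, a group of short probes for the same transcript. RNA was measured on 9 Affymetrix whole-transcript arrays, 3 per group. The leukemia group was whole femoral marrow of 3 mice that carried an ERG transgene, taken once leukemia was apparent, with 1 mouse per array. The lineage-negative group was marrow of 9 wild type mice from which cells bearing mature blood cell markers had been removed with a commercial depletion kit, pooled as 3 mice per array. The whole marrow group was undepleted marrow of 3 wild type mice, with 1 mouse per array. All mice were of the strain C57BL6, and the sources used here give neither age nor sex of the mice, nor the promoter of the transgene or the species of its ERG sequence.

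B cells arise in the marrow from lymphoid progenitors. The transcription factors EBF1 and PAX5 start and then hold the B cell program, and the RAG recombinase cuts the immunoglobulin genes so that their segments can be joined. A precursor that has joined its heavy chain gene shows the chain on its surface with a surrogate light chain, made of the products of Igll1 and of a VPREB gene, and with the signalling pair CD79A and CD79B. This pre-B cell receptor signals through the kinase SYK and the adaptor BLNK, and later B cells replace the surrogate with a true light chain and carry the surface protein CD20, the product of Ms4a1. Depletion kits for mouse marrow generally include an antibody against CD45R, a surface protein of the B lineage, although the labels do not list the antibodies used here.

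Array medians ran from 32.3 to 34.4 intensity units, with 33.4 as the median of all probe sets, and a signal below that median was treated as close to background. The probe set for the mouse Erg gene read 73.2 to 97.2 units in the leukemias, 93.9 to 129.2 in the lineage-negative pools and 128.6 to 194.4 in whole marrow, which does not check the transgene. Whole marrow array 2 stood apart from whole marrow arrays 1 and 3 in its sex-linked genes, with 19.9 units of Xist and 370.6 of Eif2s3y, against at least 2068 and at most 17.1 on those arrays. The leukemias read 1546 to 2114 units of Xist and 15.8 to 18.1 of Eif2s3y. The lineage-negative pools read 445 to 1073 and 237.3 to 299.9, so the groups also differed in these genes. The part of sex in the comparisons was not tested. Whole marrow array 2 was the lowest of its group for all 9 B lineage genes. Each comparison with whole marrow was also made without it, and none of the 9 calls was lost. Leaving out the lowest array widens these differences, so this was a weak check on the calls. Without whole marrow array 1 the Cd79a call in the leukemias was lost (limma adjusted p = 0.0574). Summed over 13 mature neutrophil genes, signal was 16684 to 24700 units in the leukemias, 825 to 2495 in the lineage-negative pools and 41360 to 49462 in whole marrow, and over 10 stem and progenitor cell genes it was 1485 to 2697 units in the leukemias, 2040 to 2990 in the pools and 742 to 907 in whole marrow.

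To show the DNA upstream of genes that moved together, the 250 bases before the start site were read from RefSeq promoters of GRCm38.p6, which matched 7 of the 9 genes in 8 windows (2 for Ebf1), and not Cd79b or Ms4a1. The following motifs were searched on both strands, with their letters given here for the strand of the gene or its opposite: EBF1 (given by name alone), E2A (the product of Tcf3) as CAGGTG, the octamer bound by the factors that the Pou2af1 product assists as ATGCAAAT, ETS as ACCGGAAGT and a PU.1 type as GAGGAAGT. The windows of the 5 genes that held any of these are shown 5′ to 3′ on the strand of the gene, with the matches in capitals. CAGGTG or its reverse complement marks Igll1, Cd79a, Blnk and Rag1, and the reverse complement of the octamer marks Vpreb3 and Blnk.
Igll1, chr16:16863986-16864235, minus strand: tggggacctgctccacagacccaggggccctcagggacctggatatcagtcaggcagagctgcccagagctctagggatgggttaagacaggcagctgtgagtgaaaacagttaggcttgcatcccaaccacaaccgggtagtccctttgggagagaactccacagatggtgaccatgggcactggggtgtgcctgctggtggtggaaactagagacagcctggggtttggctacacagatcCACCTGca
Vpreb3, chr10:75948050-75948299, plus strand: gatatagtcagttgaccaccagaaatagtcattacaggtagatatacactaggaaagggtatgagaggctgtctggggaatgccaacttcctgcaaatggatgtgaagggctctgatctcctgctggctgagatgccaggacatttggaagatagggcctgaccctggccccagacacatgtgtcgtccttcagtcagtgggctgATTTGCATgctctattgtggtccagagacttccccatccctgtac
Cd79a, chr7:24897247-24897496, plus strand: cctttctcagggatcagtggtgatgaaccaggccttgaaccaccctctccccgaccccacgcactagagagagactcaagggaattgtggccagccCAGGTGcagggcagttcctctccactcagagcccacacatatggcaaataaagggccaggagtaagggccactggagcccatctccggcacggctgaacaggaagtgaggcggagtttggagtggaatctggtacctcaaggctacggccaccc
Blnk, chr19:40994222-40994471, minus strand: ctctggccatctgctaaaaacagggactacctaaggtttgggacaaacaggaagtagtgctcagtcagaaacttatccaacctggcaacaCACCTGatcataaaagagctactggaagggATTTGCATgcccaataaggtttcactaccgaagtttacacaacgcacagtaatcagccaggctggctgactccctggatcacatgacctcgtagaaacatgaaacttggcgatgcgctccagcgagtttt
Rag1, chr2:101649533-101649782, minus strand: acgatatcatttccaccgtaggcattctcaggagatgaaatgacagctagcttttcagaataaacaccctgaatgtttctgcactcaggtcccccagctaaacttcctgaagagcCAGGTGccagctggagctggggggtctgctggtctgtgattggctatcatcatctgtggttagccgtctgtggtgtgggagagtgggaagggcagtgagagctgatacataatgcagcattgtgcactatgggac

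The E2A letters stood in 4 of the 8 windows of these genes, and in 17.2% of all 32851 windows of that length. The octamer stood in 2 of the 8, and in 1.6% of all windows. The EBF1, ETS and PU.1 type letters were in 0 of the 8 windows, and in 0.779%, 0.804% and 2.44% of all windows. A match is a description of the letters and no evidence of binding. Only these exact letters were searched, so a window without a match may still hold a site for the factor.

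Leukemic marrow had less signal than whole marrow for all 9 genes, and so did lineage-negative marrow. By limma, with Benjamini-Hochberg adjustment across the 19938 genes, 9 of 9 passed an adjusted p of 0.05 as lower in the leukemias, against 9.93% of all genes. In lineage-negative marrow 9 of 9 also passed as lower than in whole marrow, against 13% of all genes. In each of these comparisons no array of the lower group reached the lowest whole marrow array for any of the 9 genes, and this was so for 17.7% of all genes in the leukemias and 23.4% in lineage-negative marrow. The median log2 difference of the 9 genes was -2.70 in the leukemias and -2.86 in lineage-negative marrow, and over all genes it was -0.02 in the leukemias and -0.04 in lineage-negative marrow. These 2 comparisons share the same whole marrow arrays. In RNA of whole samples, fewer cells of a type and less RNA per cell cannot be told apart.

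**Figure D1:**
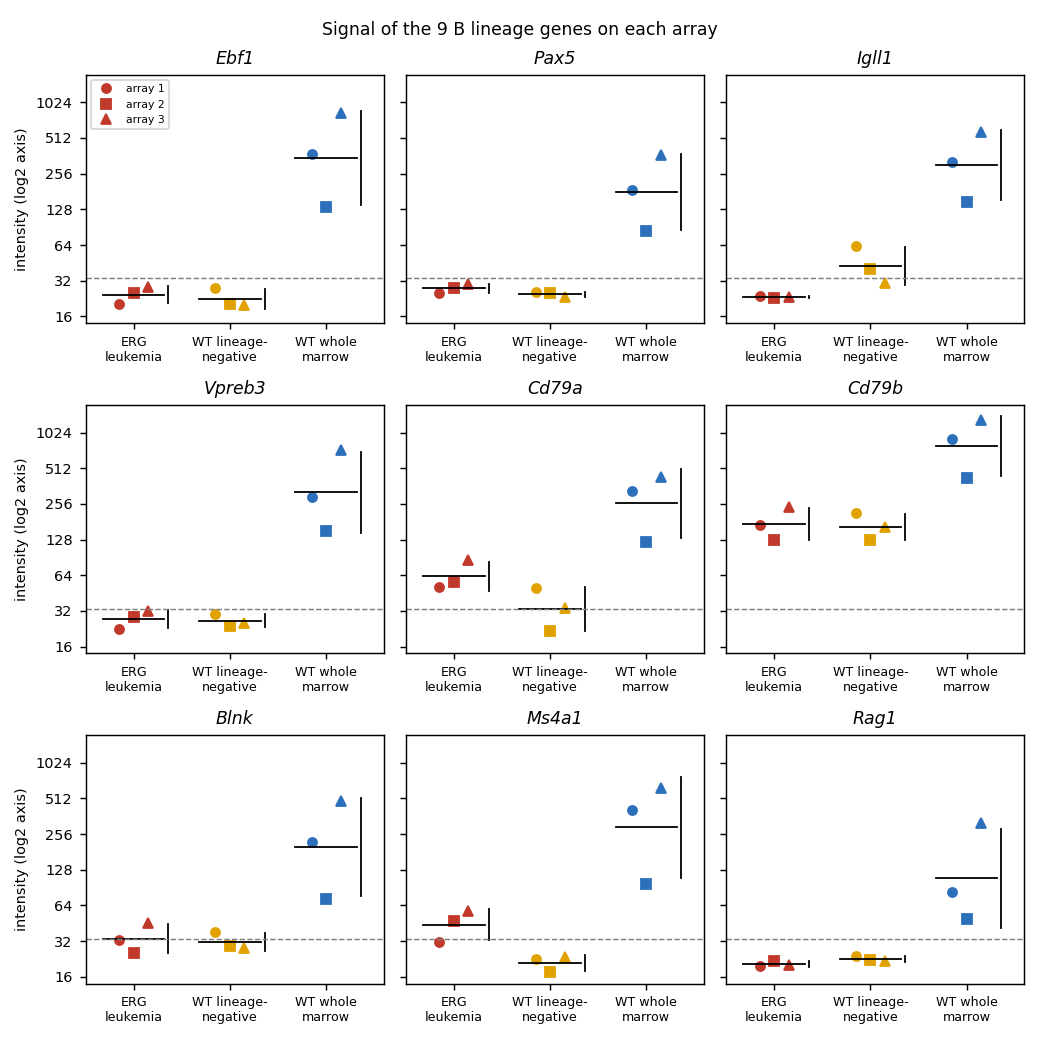
Intensity of the 9 genes on each array, on a log2 axis, with 3 arrays each of ERG leukemia, wild type lineage-negative and wild type whole marrow. The horizontal bar is the mean of log2 values, the vertical bar its SD (n = 3), and the dashed line the median of all probe sets, 33.4. Every whole marrow array lies above every leukemia and lineage-negative array in each panel.

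The transcription factors that set B cell identity were at the level of background outside whole marrow. Ebf1, which commits progenitors to the B lineage, read 20.5, 25.1 and 28.5 units in leukemias 1, 2 and 3, 28.0, 20.3 and 19.8 in lineage-negative pools 1, 2 and 3, and 378.4, 132.9 and 831.2 in whole marrow arrays 1, 2 and 3. All 6 leukemia and lineage-negative values lay below the array medians, while the whole marrow values spread 6.25-fold among themselves. Its log2 difference from whole marrow was -3.83 ± 0.54 (SE) in the leukemias (limma adjusted p = 0.00194) and -3.95 ± 0.54 in lineage-negative marrow (adjusted p = 0.000687). Measured against the higher of its own signal and the array median, Ebf1 was at least 10.4-fold lower in the leukemias and at least 10.5-fold lower in lineage-negative marrow than in whole marrow. Every fold given below as "at least" was computed in this way, because a signal under the median limits how far a fall can be read.

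Pax5, which EBF1 helps to switch on and which keeps B cells from other fates, showed the same picture. It read 25.3, 27.7 and 30.2 units in the leukemias, 25.5, 25.1 and 23.3 in the lineage-negative pools and 185.1, 83.8 and 370.9 in whole marrow arrays 1, 2 and 3. The leukemia and pool values all lay under the array medians and whole marrow did not overlap with them. Pax5 was at least 5.38-fold lower in the leukemias (-2.70 ± 0.43, limma adjusted p = 0.003) and at least 5.45-fold lower in lineage-negative marrow (-2.86 ± 0.43, adjusted p = 0.00105).

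Of the surrogate light chain genes, Igll1 also did not overlap between the leukemias and lineage-negative marrow. Of all genes 16.3% were lower in the leukemias without overlap in that comparison. The Igll1 difference there did not pass (limma adjusted p = 0.303). Igll1, which encodes the lambda5 chain, read 23.9, 23.0 and 23.2 units in leukemias 1, 2 and 3, against 63.0, 40.1 and 30.5 in lineage-negative pools 1, 2 and 3 and 319.4, 148.1 and 577.0 in whole marrow arrays 1, 2 and 3. The leukemia values were nearly equal, with a log2 SD of 0.03, and lay below all 3 pools, of which 2 were above their array medians. Igll1 was at least 9.03-fold lower in the leukemias than in wild type whole marrow (-3.69 ± 0.44, limma adjusted p = 0.00113). In lineage-negative marrow it was 7.07-fold lower than in whole marrow (-2.82 ± 0.44, adjusted p = 0.00131), or 6.8-fold with the 1 pool under its median raised to it. Vpreb3, a relative of the VPREB proteins that is found with immunoglobulin chains in B cell precursors, read 22.6, 28.3 and 32.1 units in the leukemias, 30.3, 23.9 and 25.4 in the pools and 295.1, 151.5 and 728.3 in whole marrow arrays 1, 2 and 3. In contrast to Igll1, leukemia and pool values of Vpreb3 overlapped and were all under the array medians. It was at least 9.58-fold lower in the leukemias (-3.54 ± 0.47, adjusted p = 0.00151) and at least 9.7-fold lower in lineage-negative marrow (-3.60 ± 0.47, adjusted p = 0.000518).

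The signalling pair of the receptor kept signal above the median outside whole marrow in part. Cd79a read 50.6, 56.6 and 85.8 units in leukemias 1, 2 and 3, 49.9, 21.5 and 34.0 in pools 1, 2 and 3, and 328.8, 121.6 and 435.1 in whole marrow arrays 1, 2 and 3. All 3 leukemias were above their array medians, as was pool 1, and pools 2 and 3 were not. Cd79a was 4.13-fold lower in the leukemias than in wild type whole marrow (-2.05 ± 0.48, limma adjusted p = 0.015) and at least 6.82-fold lower in lineage-negative marrow (-2.97 ± 0.48, adjusted p = 0.00151). Without whole marrow array 1 its fall in the leukemias did not pass (-1.88 ± 0.56, adjusted p = 0.0574). Cd79b read 170.2, 127.5 and 240.6 units in the leukemias, 212.4, 126.7 and 162.9 in the pools and 901.9, 420.5 and 1306 in whole marrow arrays 1, 2 and 3. It was above the median on all 9 arrays, so its fold is not limited by background, and it was 4.56-fold lower in the leukemias (-2.19 ± 0.41, adjusted p = 0.00572) and 4.83-fold lower in lineage-negative marrow (-2.27 ± 0.41, adjusted p = 0.00253).

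Blnk, the adaptor that carries the signal from SYK onward, read 32.6, 25.6 and 45.6 units in leukemias 1, 2 and 3, 38.1, 29.3 and 27.8 in pools 1, 2 and 3, and 217.3, 73.1 and 486.1 in whole marrow arrays 1, 2 and 3. Leukemia and pool values overlapped and straddled the median. Blnk was 5.88-fold lower in the leukemias (-2.55 ± 0.58, limma adjusted p = 0.0127), or 5.35-fold with the 1 leukemia under its median raised to it, and at least 5.69-fold lower in lineage-negative marrow (-2.65 ± 0.58, adjusted p = 0.00673). Rag1, one of the pair of recombinase genes, read 19.9, 21.8 and 20.0 units in the leukemias, 24.2, 22.1 and 21.9 in the pools and 83.0, 49.1 and 317.2 in whole marrow arrays 1, 2 and 3. It was under the median on all leukemia and pool arrays, and at least 3.27-fold lower in the leukemias (-2.41 ± 0.55, adjusted p = 0.0135) and at least 3.31-fold lower in lineage-negative marrow (-2.26 ± 0.55, adjusted p = 0.0117).

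Ms4a1, the CD20 gene of later B cells, read 31.6, 47.0 and 57.1 units in leukemias 1, 2 and 3, against 22.4, 17.4 and 23.5 in lineage-negative pools 1, 2 and 3 and 407.9, 96.3 and 628.2 in whole marrow arrays 1, 2 and 3. Leukemias 2 and 3 were above their array medians, all pools were below, and the groups did not overlap. Of all genes 11.6% were higher in the leukemias than in the pools without overlap. The Ms4a1 difference between leukemias and pools did not pass (limma adjusted p = 0.347). Ms4a1 was 6.63-fold lower in the leukemias than in wild type whole marrow (-2.73 ± 0.59, limma adjusted p = 0.0111), or 6.57-fold with the 1 leukemia under its median raised to it. It was at least 8.85-fold lower in lineage-negative marrow (-3.80 ± 0.59, adjusted p = 0.00127).

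The 3 wild type mice whose marrow was used whole differed widely in these genes. All 9 genes were highest in whole marrow array 3, intermediate in array 1 and lowest in array 2, an order held by 15.5% of all genes. From the lowest to the highest whole marrow array the spread was 3.11-fold for Cd79b and 6.65-fold for Blnk, with the other 7 genes between these. The log2 SD over whole marrow arrays was 0.83 to 1.42 for the 9 genes, against a median of 0.13 over all genes, and the 9 ranked between 17 and 138 from the top among 19938 genes. Relative to each gene's whole marrow mean, the median of the 9 genes was 0.12 in array 1, -1.10 in array 2 and 1.11 in array 3 on the log2 scale. Across the same arrays 1, 2 and 3, the summed signal of 13 erythroid genes was 6585, 4219 and 10374 units, that of 17 T and NK cell genes 2062, 2078 and 1730, and that of 13 mature neutrophil genes 49462, 45742 and 41360. That of 9 plasmacytoid dendritic cell genes was 2013, 1179 and 2513 units. This sum includes Ly6d (633.5, 126.1 and 389.1) and Tcf4 (348.5, 223.9 and 485.3), which are also in the wider B cell lists counted below. The erythroid and plasmacytoid dendritic cell sums followed the order of the B lineage genes, and their part in this spread was not tested.

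**Figure D2:**
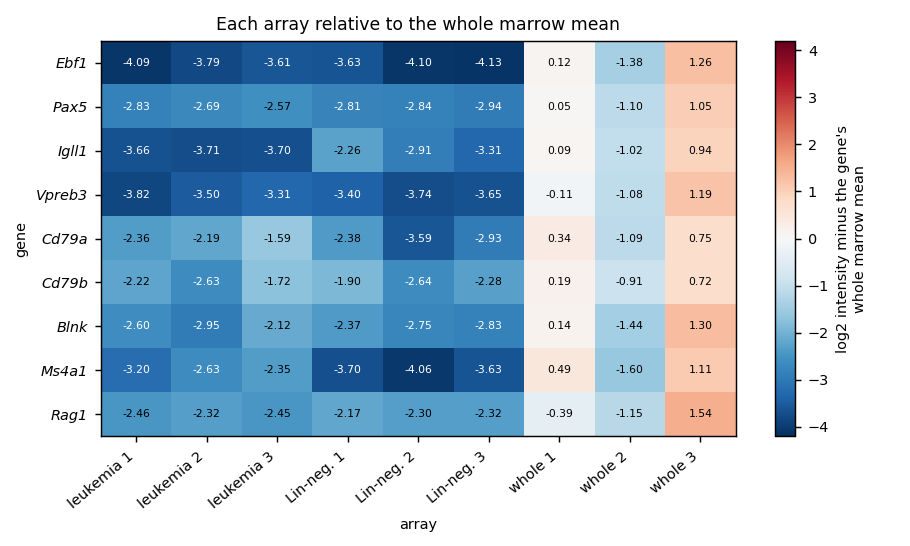
Log2 intensity of each of the 9 genes on each of the 9 arrays, minus the mean of that gene over the 3 whole marrow arrays, with values printed in the cells. Whole marrow array 3 is above and array 2 below the mean for every gene, and all leukemia and lineage-negative cells are at -1.59 or lower.

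Smaller differences within the other groups were also shared between genes. Leukemia 3 was the highest leukemia for 7 of the 9 genes, the exceptions being Igll1 and Rag1, and it was the highest for 26.9% of all genes. Lineage-negative pool 1 was the highest pool for 8 of the 9, all but Ms4a1, and for 32.6% of all genes. Cd79b, above the median on all arrays, was at 240.6 units in leukemia 3 and 127.5 in leukemia 2, and at 212.4 in pool 1 and 126.7 in pool 2. Ebf1, Pax5, Vpreb3 and Rag1 were under the median on all leukemia and pool arrays, so their order within these groups cannot be read. The leukemia 3 count includes Ebf1, Pax5 and Vpreb3, and the pool 1 count includes all of these. Cd79a, Cd79b, Blnk and Ms4a1, above the median in at least 1 leukemia, were highest in leukemia 3. Igll1, Cd79a, Cd79b and Blnk, above it in at least 1 pool, were highest in pool 1. For Pax5 and Rag1, near background in both groups, the log2 SD was 0.07 to 0.13.

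Leukemic and lineage-negative marrow were set against each other to ask whether the leukemias differed from wild type marrow depleted of mature cells. By limma 0 of the 9 genes passed, with adjusted p between 0.303 and 0.97, against 8.69% of all genes, and 0 of 9 had an unadjusted p under 0.05, against 22.6% of all genes. With only the 6 arrays of these groups in the fit, 0 of 9 passed, against 6.14% of all genes, and 3 of 9 had an unadjusted p under 0.05, against 22.5% of all genes. The fit of all 9 arrays uses 1 spread per gene, which for these genes holds the wide spread of whole marrow. The 95% intervals of the log2 differences were -1.11 to 1.37 for Ebf1, -0.81 to 1.14 for Pax5, -1.01 to 1.12 for Vpreb3 and -0.84 to 1.01 for Cd79b, so differences of up to those sizes were not excluded. For Blnk the interval was -1.21 to 1.41 and for Rag1 -1.40 to 1.11. Ebf1, Pax5, Vpreb3 and Rag1 lay under the array medians on all 6 arrays. Near background a difference in RNA may not show, so their intervals describe signal alone.

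The groups did not overlap for 4 of the 9 genes in this comparison, against 27.9% of all genes, with 2 higher and 2 lower in the leukemias, against 11.6% and 16.3% of all genes. Ms4a1 and Cd79a were higher in every leukemia than in every pool, with log2 differences of 1.07 (95% interval -0.28 to 2.42, limma adjusted p = 0.347) and 0.92 (-0.17 to 2.01, adjusted p = 0.314). Igll1 and Rag1 were lower in every leukemia than in every pool, with -0.87 (-1.88 to 0.14, adjusted p = 0.303) and -0.14 (adjusted p = 0.93). Rag1 was under the median on all 6 of these arrays, Igll1 in every leukemia and Ms4a1 in every pool. With only these 2 groups in the fit, the adjusted p was 0.0504 for Ms4a1, 0.0981 for Igll1, 0.172 for Cd79a and 0.349 for Rag1. Without whole marrow array 2, which narrowed the shared spread, Ms4a1 passed (1.07 ± 0.25, adjusted p = 0.0424). An exact two-sided permutation test of 3 arrays against 3 gave p = 0.1 for each of the 4, the smallest it can give.

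**Figure D3:**
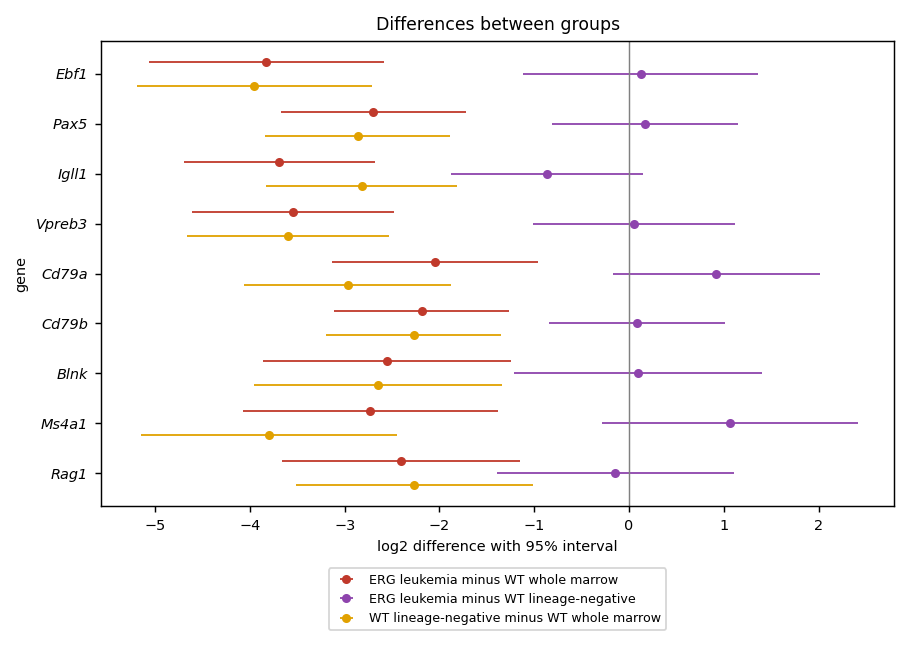
Log2 difference of each gene with its 95% interval from limma, for ERG leukemia minus whole marrow, ERG leukemia minus lineage-negative marrow and lineage-negative minus whole marrow. The intervals of the comparisons with whole marrow lie below 0 for all 9 genes, and those of leukemia minus lineage-negative marrow include 0 for all 9.

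The other genes of the pre-B cell receptor behaved unevenly. Ighm, the heavy chain gene of IgM, read 207.4, 66.0 and 432.0 units in leukemias 1, 2 and 3, against 801.7, 448.6 and 755.7 in lineage-negative pools 1, 2 and 3 and 663.3, 512.8 and 647.5 in whole marrow arrays 1, 2 and 3. Unlike the 9 genes, Ighm had similar signal in lineage-negative and whole marrow, at a log2 difference of 0.10 ± 0.58 (limma adjusted p = 0.913). Its differences in the leukemias were -1.74 ± 0.58 from whole marrow (adjusted p = 0.0585) and -1.84 ± 0.58 from lineage-negative marrow (adjusted p = 0.0899), and neither passed. Vpreb1 and Vpreb2 encode near-identical partners of lambda5, so their probe sets may share signal. Vpreb1 read 22.5 to 25.2 units in the leukemias, 23.1 to 25.0 in the pools and 32.7 to 34.4 in whole marrow, all near background, and its small fall passed in the leukemias (at least 1.01-fold, adjusted p = 0.00268) and in lineage-negative marrow (at least 1.02-fold, adjusted p = 0.00121). Vpreb2 did not pass in any comparison.

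Genes of wider B cell lists were counted to set the 9 genes in their pathway. Of 115 distinct genes listed, 106 were measured. In leukemic against whole marrow 14 of 23 genes that signal below the B cell receptor fell and 1 rose, 11 of 23 B lineage transcription factors fell and 2 rose, and 11 of 18 surface genes of mature B cells fell and 0 rose. The list medians were -0.86, -1.17 and -1.18 on the log2 scale. Of all genes 9.93% were lower and 14.6% higher by the same test. In leukemic against lineage-negative marrow the same lists had 2 lower and 4 higher, 3 lower and 1 higher, and 1 lower and 0 higher, where 5.74% of all genes were lower and 2.95% higher. In lineage-negative against whole marrow they had 16 lower and 2 higher, 11 lower and 4 higher, and 12 lower and 0 higher, beside 13% and 21.7% of all genes. The count of mature B cell surface genes that fell there in the leukemias was 6 without whole marrow array 1 and 7 without leukemia 1. Of 17 genes of T and NK cells, 12 also fell in the leukemias against whole marrow, with a summed signal of 762 to 1008 units in the leukemias and 1730 to 2078 in whole marrow, and 10 of 13 erythroid genes were higher, with sums of 15365 to 20683 units in the leukemias and 4219 to 10374 in whole marrow. Of 13 mature neutrophil genes, 9 fell in the leukemias and 13 in lineage-negative marrow, both against whole marrow. The signalling list includes genes that B cells share with myeloid cells, such as Prkcb. The part of these other cells in the B cell result was not tested.

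**Figure D4:**
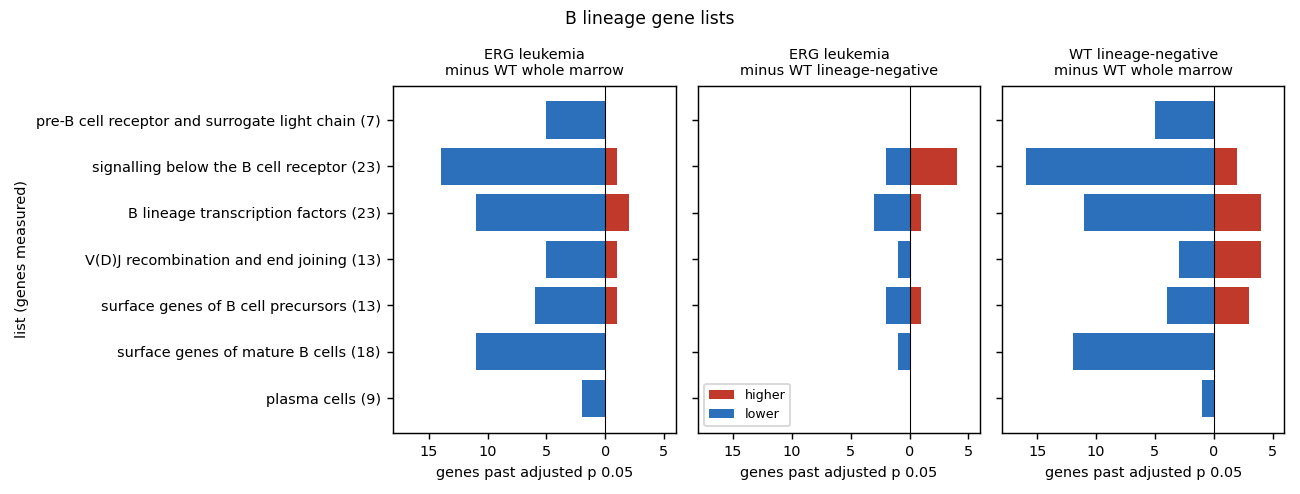
Number of genes in each B cell list past an adjusted p of 0.05, higher to the right and lower to the left, in the 3 comparisons, with the number of genes measured in parentheses. The 9 genes are included in their lists. Most passing genes are lower in the comparisons with whole marrow, and few pass between leukemic and lineage-negative marrow.

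Of the 23 transcription factors, Spib, Pou2af1, Ikzf3, Bach2, Irf4, Lef1 and Bcl6 fell, beside Ebf1 and Pax5, in both comparisons with whole marrow. Spib, an ETS factor of B cells and plasmacytoid dendritic cells, read 48.6, 46.4 and 74.7 units in leukemias 1, 2 and 3, 44.2, 23.8 and 27.0 in pools 1, 2 and 3, and 420.8, 148.9 and 910.9 in whole marrow arrays 1, 2 and 3. It fell in the leukemias (-2.80 ± 0.57, limma adjusted p = 0.00847) and in lineage-negative marrow (at least 10.6-fold, adjusted p = 0.00127). Pou2af1, the B cell coactivator of octamer factors, differed by -2.22 ± 0.45 and -2.44 ± 0.45 in the same comparisons, Ikzf3 (Aiolos) by -2.47 ± 0.51 and -2.53 ± 0.51, and Bach2, a repressor of the plasma cell program, by -2.68 ± 0.56 and -2.21 ± 0.56. With Bach2 near background outside whole marrow, its fall was at least 4.62-fold and at least 4.38-fold. The Bach2 call in lineage-negative marrow was lost without pool 2 (adjusted p = 0.0502). Irf4 and Lef1 fell in both comparisons as well, the Irf4 calls being lost without leukemia 2 (adjusted p = 0.0512) and without pool 2 (adjusted p = 0.0567).

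Bcl11a and Tcf3 were the only B lineage transcription factors of the list that rose in the leukemias against whole marrow. Bcl11a, needed for the earliest lymphoid cells and active in stem and erythroid cells too, read 626.9 to 816.5 units in the leukemias, 866.1 to 1061 in the pools and 261.7 to 520.6 in whole marrow, and rose in the leukemias (0.96 ± 0.23, limma adjusted p = 0.0159) and in lineage-negative marrow (1.32 ± 0.23, adjusted p = 0.00215). Tcf3, which encodes the E2A proteins that precede EBF1, read 263.9 to 342.4 units in the leukemias, 297.2 to 373.7 in the pools and 119.0 to 263.6 in whole marrow. Its rise in the leukemias (0.81 ± 0.26, adjusted p = 0.048) was lost under 11 of 16 alternatives, and its rise in lineage-negative marrow (0.92 ± 0.26, adjusted p = 0.0219) under 6 of 17. Foxo1, an activator of the Rag genes, was at -1.36 ± 0.46 in the leukemias (adjusted p = 0.0654) and -1.10 ± 0.46 in lineage-negative marrow (adjusted p = 0.103). Between leukemic and lineage-negative marrow Mef2c, Zfp521 and Myb fell and Bcl6 rose, with Myb at -0.84 ± 0.14 (adjusted p = 0.00902), and the calls of Bcl6 and Mef2c were lost under 9 and 7 of 16 alternatives.

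In the leukemias 9.93% of all genes were lower and 14.6% higher than in whole marrow. Of 13 genes of V(D)J recombination and end joining measured, 5 fell and 1 rose in the leukemias against whole marrow. The lymphoid genes among them were Rag1, Rag2 and Dntt, the DNA polymerase that adds bases at the joins, and the general repair genes Lig4 (a call lost under 2 of 16 alternatives) and Xrcc4 also fell while Xrcc5, a subunit of Ku, rose (1.51 ± 0.24, limma adjusted p = 0.00273). Dntt was the only gene of this list that fell in the leukemias against both wild type groups. Il2ra, Cd69, Cd81 and Mef2c of other lists also did, each with a call lost under some alternatives. Dntt read 24.5, 19.7 and 22.6 units in leukemias 1, 2 and 3, and 82.7, 62.4 and 66.3 in pools 1, 2 and 3. In whole marrow arrays 1, 2 and 3 it read 73.4, 40.5 and 84.2. All leukemias were below the median and all wild type arrays above it. Dntt fell in the leukemias against lineage-negative marrow (at least 2.1-fold, -1.66 ± 0.25, adjusted p = 0.00661) and against whole marrow (at least 1.89-fold, -1.51 ± 0.25, adjusted p = 0.00359), and it did not pass between the wild type groups (0.15 ± 0.25, adjusted p = 0.694). Rag2 fell in the leukemias against whole marrow (adjusted p = 0.0211), a call lost under 3 of 15 alternatives. It read 16.0 to 17.8 units in the leukemias, 19.7 to 24.8 in the pools and 21.4 to 43.2 in whole marrow, under the median on all but whole marrow array 3, so no fold can be read. In lineage-negative against whole marrow Rag1, Xrcc4 and Nhej1 fell and Xrcc5, Atm, Prkdc and Xrcc6 rose. Of these calls, that of Xrcc6 was lost under 12 of 17 alternatives, that of Xrcc4 under 7 and that of Nhej1 under 6.

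Surface genes of B cell precursors fell in part. Against whole marrow 9.93% of all genes were lower in the leukemias and 14.6% higher. In the leukemias 6 of 13 fell against whole marrow, led by Myl4 (at least 5.02-fold, limma adjusted p = 0.00591), Il2ra (at least 3.81-fold, adjusted p = 0.00257) and Ly6d (-2.18 ± 0.53, adjusted p = 0.017, a call lost under 2 of 16 alternatives), and 1, Spn, rose (0.56 ± 0.09). Il7r, the receptor chain for the main growth factor of mouse B cell precursors, read 111.2, 48.0 and 94.9 units in leukemias 1, 2 and 3, 251.1, 150.9 and 179.2 in pools 1, 2 and 3, and 404.2, 155.4 and 654.0 in whole marrow arrays 1, 2 and 3. It fell against whole marrow (-2.11 ± 0.51, adjusted p = 0.0173), a call lost without whole marrow array 1 (adjusted p = 0.061), and did not pass against lineage-negative marrow (-1.25 ± 0.51, adjusted p = 0.189). Spn and Il7r were singled out after their values were seen. Against lineage-negative marrow Kit (-2.11 ± 0.12) and Il2ra (at least 2.45-fold, a call lost under 6 of 16 alternatives) fell in the leukemias and Bst1, under the median in all pools, rose at least 3.9-fold (adjusted p = 0.00585). Unlike the 9 genes, Bst1 was highest in whole marrow array 2, at 507.1, 725.5 and 381.0 units in arrays 1, 2 and 3. Its signal fell from whole marrow to the leukemias to the pools, as did the summed mature neutrophil genes. The part of neutrophils in the Bst1 values was not tested.

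Below the receptor, Bank1 and Prkcb were intermediate in the leukemias. Bank1, a scaffold protein of B cell receptor signalling, read 68.3, 61.1 and 108.5 units in leukemias 1, 2 and 3, 25.2, 21.9 and 22.4 in pools 1, 2 and 3, and 441.3, 148.5 and 481.4 in whole marrow arrays 1, 2 and 3. The groups did not overlap in any comparison. Of all genes 11.6% were higher in the leukemias than in the pools without overlap. Against whole marrow 17.7% were lower without overlap in the leukemias, and 23.4% in the pools. Bank1 fell in the leukemias against whole marrow (-2.04 ± 0.42, limma adjusted p = 0.00848), and rose against lineage-negative marrow (at least 2.33-fold, 1.73 ± 0.42, adjusted p = 0.0379), a call lost under 6 of 16 alternatives. Prkcb, a kinase that B cells share with myeloid cells, rose against lineage-negative marrow by 1.82 ± 0.34 (adjusted p = 0.0152) and fell against whole marrow (-1.64 ± 0.34, adjusted p = 0.00918). Cd81, a tetraspanin present on many cell types, fell in the leukemias against lineage-negative marrow (-1.39 ± 0.20, adjusted p = 0.0055). Blk, a B cell kinase of the SRC family, fell in the leukemias against whole marrow (at least 2.97-fold, adjusted p = 0.0101).

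Among the surface genes of mature B cells, Fcmr, the receptor for IgM, followed Ms4a1, with 34.0, 46.3 and 61.6 units in leukemias 1, 2 and 3, 21.8, 25.5 and 23.5 in pools 1, 2 and 3, and 379.1, 84.6 and 511.6 in whole marrow arrays 1, 2 and 3. It fell against whole marrow in the leukemias (-2.47 ± 0.58, limma adjusted p = 0.015), a call lost without whole marrow array 1 (adjusted p = 0.0585), and in lineage-negative marrow (at least 7.72-fold, adjusted p = 0.00187). Fcrla, a B cell protein related to Fc receptors, was at least 4.58-fold lower in both the leukemias (adjusted p = 0.00494) and lineage-negative marrow (adjusted p = 0.00228). In the plasma cell list 2 of 9 genes, Slamf7 and Mzb1, fell in the leukemias against whole marrow, beside 9.93% of all genes. The count of 2 was between 0 and 4 under the alternatives.

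The genes whose pattern over the 9 arrays was most like the mean pattern of the 9 genes were Slamf6, Cpm, Ikzf3, Fcrla, Spib, Pou2af1, Bach2 and Chst3. Likeness was the root mean square difference of log2 values after each gene was centred on its own mean, and it was 0.27 for Slamf6 and 0.41 for Chst3, with the other 6 between. The 9 genes themselves lay at 0.15 (Pax5) to 0.50 (Igll1) from their mean pattern. Of these 8, Ikzf3, Fcrla, Spib, Pou2af1 and Bach2 are in the B cell lists, and Slamf6, Cpm and Chst3 are not. Ebf1, Pax5, Vpreb3 and Rag1, and also Cpm and Chst3, lay under the array medians on all leukemia and pool arrays. For such genes likeness rests mainly on the whole marrow arrays and their height above background. Slamf6, a receptor of lymphocytes, read 40.1, 26.7 and 40.9 units in leukemias 1, 2 and 3, 35.2, 26.6 and 29.9 in pools 1, 2 and 3, and 221.1, 89.9 and 348.3 in whole marrow arrays 1, 2 and 3. Taken singly, Ebf1 and Vpreb3 were each other's nearest gene of all 19938 (0.21), Blnk was nearest to Ikzf3 (0.15), Cd79b to Fcrla (0.15), Ms4a1 to Fcmr (0.23), Pax5 to Cpm (0.21), Rag1 to Akap12 (0.18), Cd79a to Pgap1 (0.24) and Igll1 to Vpreb3 (0.48).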

How the data were processed

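RNA of 9 marrow samples was hybridised to 9 arrays. The deposited table gives 1 intensity per probe set and array, on a linear scale, and per the submitters' processing notes the authors made it with RMA in the software Partek. The sources used here name no version and no genome build. The deposited intensities were log2-transformed here and not normalized further. Of 28853 probe sets, 21789 had 1 gene symbol in the platform annotation and entered the tests, with symbols updated by Entrez identifier. Each gene was represented by its brightest probe set by mean, which left 19938 genes, dim ones included.

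The 3 groups were fitted in 1 linear model by limma (version 3.58.1, R 4.3.3; eBayes without an intensity trend), with 6 residual and 2.62 prior degrees of freedom, two-sided tests and Benjamini-Hochberg adjustment over all genes of a comparison at 0.05. The fit was tested on simulated data. Values are log2 differences ± SE, and SD is over 3 arrays. With 3 arrays per group, their number limits precision, and each lineage-negative array averages 3 mice. Figures used matplotlib 3.10.9. Motifs were read from RefSeq promoter windows.

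The members, lists and tests were chosen with earlier results of these data known. By rule, the text names the 9 genes, genes of the receptor, transcription factor and recombination lists, the 3 largest changes past the threshold in each other list, and the nearest genes by likeness. Alternatives were 75th percentile centring, cyclic loess, only the 2 groups compared, an intensity trend, array weights, bright genes only, the mean of all probe sets of a gene, a log2 size of at least 1, each array left out, and the title number of the wild type arrays as a block. Replicate numbers of wild type arrays follow the titles, and leukemias were numbered in accession order.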

Additional observations from a re-analysis of the deposited data

How the results depend on the processing

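The 9 genes kept their direction and stayed past the threshold in lineage-negative against whole marrow under all 17 alternatives, with adjusted p of at most 0.0388. In leukemic against whole marrow the direction held under all 16 alternatives and 143 of 144 calls held, the exception being Cd79a without whole marrow array 1. In leukemic against lineage-negative marrow the count past the threshold was 0 of 9, and between 0 and 1 when single arrays were left out, the 1 being Ms4a1 without whole marrow array 2. There, values near 0 changed sign. Vpreb3 was between -0.0605 and 0.19 when single arrays were left out, Cd79b between -0.15 and 0.31 and Blnk between -0.12 and 0.29, with the lowest value of each without leukemia 3, and Vpreb3 and Cd79b were also below 0 without lineage-negative pool 2 (-0.02 and -0.10). With the title number of the wild type arrays as a replicate block, 9 of 9 genes still passed, and 6893 of all genes did, against 6915 without it. Deviations of same-numbered arrays correlated at 0.31, -0.01 and -0.01, and those of differently numbered arrays at -0.20 to 0.15. So few correlations cannot show whether the numbers pair the samples. The main fit did not use the numbers as a block, because the samples came from different mice. Counts over all genes between leukemic and lineage-negative marrow ranged from 804 without pool 1 to 3389 with array weights, against 1733, with 1007 without leukemia 3, 1054 without pool 2 and 958 without pool 3. At a log2 size of at least 1, 1411 of 4881 genes remained in leukemic against whole marrow, 552 of 1733 in leukemic against lineage-negative and 2282 of 6915 in lineage-negative against whole marrow. Recombination genes lower in lineage-negative marrow numbered 1 to 6, against 3, receptor signalling genes higher in the leukemias than in lineage-negative marrow 1 to 6, against 4, and mature B cell surface genes higher there 0 to 5, against 0. Of the other listed genes past the threshold, 29 of 50, 7 of 15 and 38 of 56 passed under every alternative in leukemic against whole, leukemic against lineage-negative and lineage-negative against whole marrow, and 0 values changed sign. The cause of these changes was not tested. Signal near background limits the size of falls for most of the 9 genes.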

Other observations

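A pair of B cell surface genes divided the leukemias, and both were singled out after their values were seen. Cd72, a co-receptor that dampens B cell receptor signalling, read 558.7, 33.8 and 742.6 units in leukemias 1, 2 and 3, against 97.9, 48.4 and 70.0 in lineage-negative pools 1, 2 and 3 and 504.9, 202.9 and 957.1 in whole marrow arrays 1, 2 and 3. Fcrl5, a receptor related to Fc receptors, read 230.6, 18.4 and 439.1 units in leukemias 1, 2 and 3, 15.1, 16.9 and 16.0 in the pools and 22.0, 17.5 and 22.8 in whole marrow. Leukemias 1 and 3 thus lay above all 6 wild type arrays for Fcrl5, and leukemia 2 did not. Neither gene passed in any comparison by limma, with adjusted p of 0.617 and 0.0867 against whole marrow and 0.396 and 0.101 against lineage-negative marrow for Cd72 and Fcrl5. Ebf1 and Pax5 were below the array medians in all 3 leukemias.

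Jchain, the joining chain of IgM and IgA, also differed between the leukemias, at 365.3, 61.5 and 911.0 units in leukemias 1, 2 and 3, against 832.0, 445.4 and 889.2 in the pools and 1061, 602.0 and 771.2 in whole marrow, and it did not pass in any comparison. It was singled out after its values were seen. The summed signal of 10 monocyte and macrophage genes was 5459, 2753 and 6112 units in leukemias 1, 2 and 3, with leukemia 2 lowest as for Cd72, Fcrl5 and Jchain, and its part in those values was not tested.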
